A study of Mus musculus with 30 samples.

Results

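Perineuronal nets are lattices of extracellular matrix around the cell bodies and proximal dendrites of neurons, best known around parvalbumin interneurons, and in the hippocampus they also surround CA2 pyramidal cells. Their backbone is hyaluronan, a sugar polymer made at the cell membrane. Lecticans, the chondroitin sulfate proteoglycans aggrecan, brevican, neurocan and versican, bind hyaluronan at one end, link proteins fasten that contact, and tenascins join lecticans at the other end. The set described here holds 10 genes listed by name for these roles, with earlier results of these data known: the 4 lecticans Acan, Bcan, Ncan and Vcan, the link proteins Hapln1 and Hapln4, the tenascins Tnr and Tnc, the membrane-bound chondroitin sulfate proteoglycan and phosphatase Ptprz1, and the hyaluronan synthase Has2. These are 10 of the 49315 genes in the count table. Of the 16486 genes with enough reads for a test, 9 were members. Has2, with 4 to 19 reads per mouse, did not pass the filter on low counts with all 30 mice and has values only from fits with other mice or filters.

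The study asked what loss of TIMP2, a secreted inhibitor of matrix metalloproteinases, does to the hippocampus, including its extracellular matrix. Bulk RNA-seq of whole hippocampus was made from 13 mice labelled TIMP2 KO (7 females and 6 males) and 17 mice labelled WT (7 females and 10 males), all on C57BL/6J and each a separate animal. The study describes the knockout as a line from the Jackson Laboratory with a global deletion, in all cells rather than in a chosen cell type, and with littermate controls. The labels give neither an age nor a treatment for these 30 mice, and the harvest dates that the methods name as a batch are not in the labels and could not be fitted.

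Between 18345517 and 41081083 reads per mouse were counted on genes in TIMP2 KO (median 28180319) and between 19445246 and 32098386 in WT (median 27786898). Levels below are in CPM, read counts scaled to library size with TMM factors, edgeR's correction for library composition. The targeted gene Timp2 was 158 ± 10.5 CPM (SD, n = 13) in TIMP2 KO and 317 ± 39.8 CPM (SD, n = 17) in WT, and all 13 TIMP2 KO mice lay below the lowest WT mouse, so reads on Timp2 were fewer but not absent. Its fold change was -0.999 on the log2 scale (SE 0.053, adjusted p = 7.62e-16 by edgeR's quasi-likelihood test). One TIMP2 KO male, mouse 18, correlated least with the other libraries (mean r 0.990, against 0.991 to 0.993 for the rest) and had the lowest Timp2 as well, so results that rest on it are given with and without it. The 8 markers of hippocampal excitatory neurons summed to 2419 to 2977 CPM per mouse, of which Slc17a7 had a mean of 1637 CPM in TIMP2 KO and 1628 CPM in WT. The sums were 61.2 to 75.7 CPM for 5 striatal and 63.2 to 87.8 CPM for 6 thalamic and habenular markers. They were 246 to 289 CPM for 6 neocortex, 51.5 to 133 CPM for 7 meningeal fibroblast and 28.4 to 726 CPM for 9 choroid plexus markers. Lists of different genes do not give shares of tissue.

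The members differed widely in level. Per kilobase of exon, Bcan was highest at 50.2 ± 2.93 CPM (SD, n = 30), followed by Hapln4 at 34.5 ± 2.67 and Ncan at 26.8 ± 2.12 CPM per kilobase. Tnr at 17.2 ± 1.82 and Ptprz1 at 17.01 ± 1.52 CPM per kilobase did not differ beyond their spread, with Tnr the higher of the pair in 15 of 30 mice. Hapln1 stood at 7.39 ± 0.546 and Vcan at 1.01 ± 0.117 CPM per kilobase. Tnc at 0.482 ± 0.107 and Acan at 0.449 ± 0.116 CPM per kilobase overlapped, with Tnc higher in 20 of 30 mice, and Has2 was lowest at 0.0825 ± 0.0310. Every other neighbouring pair in this order kept its order in all 30 mice, except Hapln4 and Ncan, which kept it in 29. Aggrecan, the proteoglycan often used to stain nets, was thus among the members with the fewest reads, with 49 to 223 per mouse, while Ptprz1 had 4659 to 9421.

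**Figure D1:**
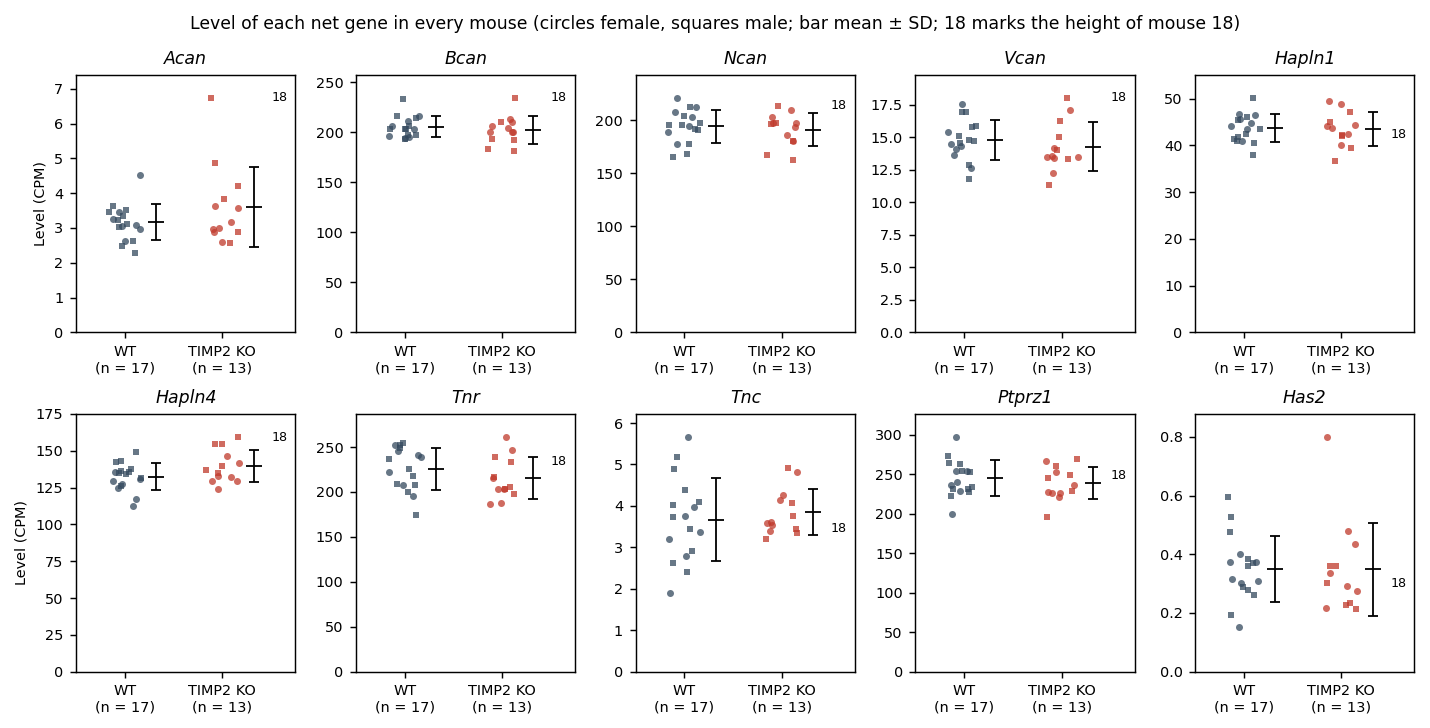
Level of each of the 10 genes in every mouse, in CPM (linear axes starting at 0), with circles for females, squares for males and bars for mean ± SD in WT (n = 17) and TIMP2 KO (n = 13). The groups overlap for each gene, and mouse 18 (height marked 18) is the highest of all mice for Acan, Bcan, Vcan and Hapln4.

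Among the lecticans, none changed with the genotype at an unadjusted p under 0.05. Acan encodes aggrecan, the core lectican of nets, and lies on the plus strand of chromosome 7 of GRCm38 from 79053483 to 79115099. The lowest, median and highest Acan levels were 2.56, 3.18 and 6.73 CPM in TIMP2 KO and 2.28, 3.13 and 4.53 CPM in WT. The medians nearly coincided, and only 2 TIMP2 KO mice exceeded the highest WT mouse. The difference was 0.20 on the log2 scale (95% confidence interval -0.035 to 0.43, unadjusted p = 0.0942 and adjusted p = 0.998 by edgeR's quasi-likelihood test). Without mouse 18 it was 0.081 (interval -0.11 to 0.27, unadjusted p = 0.391), and the highest TIMP2 KO level became 4.86 CPM. In the other direction, Acan passed the unadjusted threshold without mouse 10 (TIMP2 KO, 0.23, p = 0.0472) and without mouse 19 (WT, 0.24, p = 0.0400). Since the strand setting of the counting is not given in the sources used here, and Acan ends 2 bases from the end of the oppositely oriented link protein gene Hapln3, reads that run past the end of either gene cannot be told apart.

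Bcan (chromosome 3, minus strand, 87987531 to 88000230), which encodes brevican, an astrocyte-rich lectican, had a mean of 202 ± 13.8 CPM in TIMP2 KO (SD, n = 13) and 205 ± 10.5 CPM in WT (SD, n = 17). Ncan (chromosome 8, minus strand, 70093085 to 70120873), which encodes neurocan, had 191 ± 15.3 CPM in TIMP2 KO and 194 ± 15.6 CPM in WT. Vcan (chromosome 13, minus strand, 89655312 to 89742509), which encodes versican, had 14.3 ± 1.89 CPM in TIMP2 KO and 14.8 ± 1.56 CPM in WT. The groups overlapped for these 3 lecticans. For Bcan, 3 TIMP2 KO mice lay below every WT mouse and 1 above every WT mouse, for Ncan 1 lay below, and for Vcan 1 lay below and 1 above. The log2 differences were -0.022 for Bcan (interval -0.083 to 0.039), -0.024 for Ncan (interval -0.11 to 0.058) and -0.055 for Vcan (interval -0.17 to 0.064).

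Hapln4, also called Bral2, encodes the link protein that is paired with brevican in nets of the hindbrain, and it was the only member with an unadjusted p under 0.05 between the genotypes. It lies on the plus strand of chromosome 8 from 70083457 to 70090862. Its lowest, median and highest levels were 124, 137 and 159 CPM in TIMP2 KO and 112, 135 and 149 CPM in WT. The groups overlapped widely: 8 of 13 TIMP2 KO mice were above the WT median, 3 were above every WT mouse and 2 WT mice were below every TIMP2 KO mouse. Hapln4 was 0.079 higher in TIMP2 KO on the log2 scale (95% confidence interval 0.0047 to 0.15, unadjusted p = 0.0377 by edgeR's quasi-likelihood test). The adjusted p was 0.978. This made 1 of the 9 tested members called at the study's threshold, an unadjusted p under 0.05, where 5.03% of all genes tested were called. After adjustment 0 of 9 members were called by edgeR, and 0.0546% of all genes tested. Without mouse 18, 0 of 10 members, Has2 included, were called by edgeR at an unadjusted p under 0.05, with 5.6% of all genes called. Since whole hippocampus was sequenced, fewer cells of a type and less RNA per cell cannot be told apart for this or any other member.

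The Hapln4 difference stayed between 0.062 and 0.093 on leaving out each mouse in turn, while its call depended on which mice were included. Without mouse 18 it was 0.062 (interval -0.010 to 0.13, unadjusted p = 0.0891). The p exceeded 0.05 on leaving out any 1 of 10 mice, with differences of 0.062 to 0.077: 2, 8, 9, 15, 16, 18, 19, 20, 23 and 27 (p from 0.0501 to 0.0891). It was 0.094 in females alone (unadjusted p = 0.0388, with 5.02% of all genes called) and 0.096 in males alone (unadjusted p = 0.0251, with 3.25% of all genes called). With sex in the fit it was 0.095 (SE 0.030, unadjusted p = 0.00279, adjusted p = 0.581), and 5.62% of all genes were called.

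Hapln1 (chromosome 13, plus strand, 89539796 to 89611652), the link protein known for joining aggrecan to hyaluronan, was 43.5 ± 3.67 CPM in TIMP2 KO (SD, n = 13) and 43.7 ± 2.96 CPM in WT (SD, n = 17). Its difference of -0.0053 on the log2 scale had an interval of -0.082 to 0.072. Of all members, it had the smallest difference between genotypes.

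The tenascins and Ptprz1 did not pass the threshold either. Tnr (chromosome 1, plus strand, 159523769 to 159931729), which encodes tenascin-R, the tenascin that crosslinks lecticans in nets, was 216 ± 23.0 CPM in TIMP2 KO and 225 ± 23.6 CPM in WT. Its log2 difference was -0.064 (interval -0.17 to 0.040). Tnc (chromosome 4, minus strand, 63959785 to 64047015), which encodes tenascin-C, known from glia and from injured and developing tissue, was 3.21, 3.61 and 4.92 CPM at its lowest, median and highest in TIMP2 KO and 1.89, 3.73 and 5.66 CPM in WT. The WT mice thus spread wider than the TIMP2 KO mice on both sides, with 2 WT mice above every TIMP2 KO mouse and 6 below every one. The coefficient of variation of Tnc was 14.3% in TIMP2 KO and 27.4% in WT, and for Acan it was the other way round, 31.9% in TIMP2 KO and 16.4% in WT, or 20.8% in TIMP2 KO without mouse 18. These spreads were not compared by a test. The Tnc difference of 0.061 on the log2 scale had an interval of -0.17 to 0.29. Ptprz1 (chromosome 6, plus strand, 22875502 to 23052916), whose secreted form is the proteoglycan phosphacan, was 239 ± 20.7 CPM in TIMP2 KO and 245 ± 22.5 CPM in WT, a log2 difference of -0.036 (interval -0.13 to 0.054).

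Has2 (chromosome 15, minus strand, 56665627 to 56694539), one of the enzymes that make hyaluronan, was 0.348 ± 0.158 CPM in TIMP2 KO and 0.350 ± 0.111 CPM in WT. Of the 6 TIMP2 KO males, 0 were above the WT male median, and 4 of the 7 TIMP2 KO females were above the WT female median. In fits that kept Has2, its log2 difference was -0.050 without a filter (unadjusted p = 0.803), -0.41 among males alone (interval -0.94 to 0.11, unadjusted p = 0.116) and -0.045 without mouse 18 (interval -0.44 to 0.35, unadjusted p = 0.817). Its interaction, the effect in females minus that in males, was 0.71 with all mice by DESeq2 (unadjusted p = 0.107). By edgeR it was 0.72 without mouse 18 (interval -0.075 to 1.51, unadjusted p = 0.0744). Over the edgeR fits without 1 mouse that kept Has2, it ran from 0.49 without mouse 27 (TIMP2 KO, unadjusted p = 0.170) to 0.82 without mouse 25. Only the fit without mouse 25 (TIMP2 KO) had an unadjusted p under 0.05 (p = 0.0319, adjusted p = 0.9998, with 2.33% of all genes called). At 4 to 19 reads per mouse these intervals are wide. Reads of Tnr, Tnc and Has2 may include some from annotated genes on the opposite strand, Gm38039, 8030451A03Rik and Has2os, whose exons share 443, 176 and 182 bases with them.

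**Figure D2:**
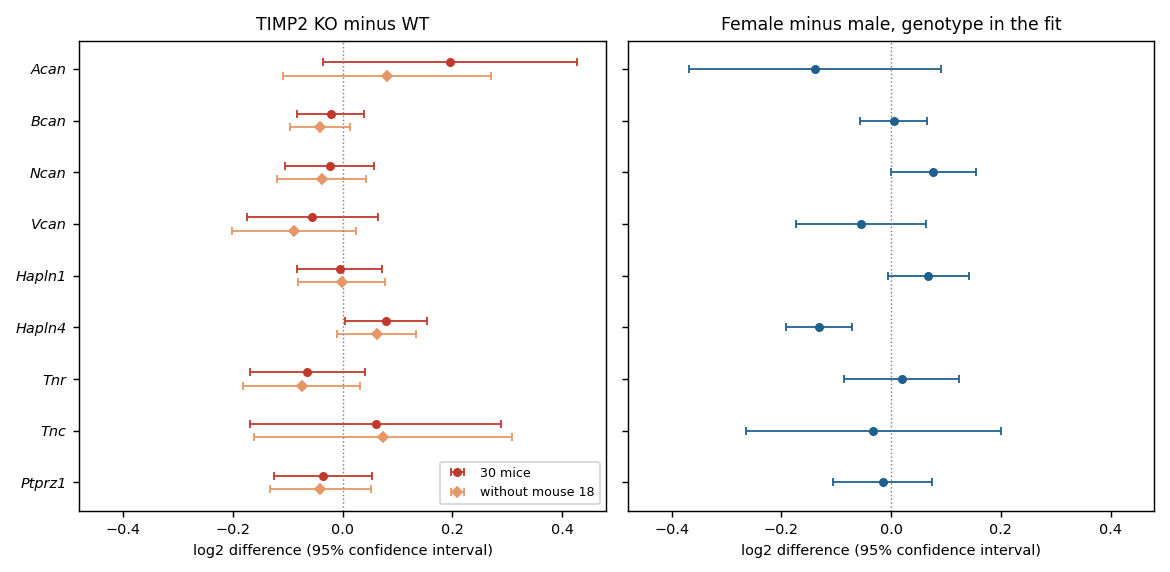
Differences in log2 CPM of the 9 tested members with 95% confidence intervals, TIMP2 KO minus WT on the left (circles 30 mice, diamonds without mouse 18) and female minus male with genotype in the fit on the right. On the left the Hapln4 interval excludes 0 with 30 mice (0.0047 to 0.15) and includes it without mouse 18, and on the right Hapln4 lies below 0 (-0.19 to -0.072).

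Sex was compared because both groups held both sexes in different proportions. Hapln4 was the only member past the unadjusted threshold between females and males. Its lowest, median and highest levels were 112, 130 and 146 CPM in the 14 females and 126, 137 and 159 CPM in the 16 males. Of the females, 12 of 14 were below the male median, 4 were below every male, and 4 males were above every female. With genotype in the fit, the Hapln4 difference, female minus male, was -0.13 on the log2 scale (95% confidence interval -0.19 to -0.072, unadjusted p = 8.28e-05, adjusted p = 0.0414 by edgeR's quasi-likelihood test). By this test 1 of 9 members was called at an unadjusted p under 0.05, with 9.77% of all genes tested called, and 1 of 9 after adjustment, with 0.218% of all genes called.

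The lower Hapln4 level in females was of the same size in WT mice alone (-0.13, unadjusted p = 0.00143, adjusted p = 0.633) and in TIMP2 KO mice alone (-0.13, unadjusted p = 0.0111, adjusted p = 0.678). The mean levels were 125 CPM in WT females, 137 in WT males, 134 in TIMP2 KO females and 147 in TIMP2 KO males. The adjusted p of edgeR lay close to the threshold, and that of DESeq2 was 0.0062 with a difference of -0.13. With edgeR it was 0.0403 with at least 10 counts in every mouse and 0.0659 without mouse 18 (2 of 10 members and 10.3% of all genes then had an unadjusted p under 0.05), lay between 0.0203 and 0.0949 on leaving out each mouse in turn, and exceeded 0.05 without any 1 of 16 mice (3, 5, 6, 7, 11, 15, 16, 18, 19, 20, 21, 23, 25, 29, 30 and 32), while the unadjusted p stayed at or below 0.000245 in all 30 such fits. The next members by sex were Ncan, 0.077 in females minus males (interval -0.00099 to 0.15, unadjusted p = 0.0528, or 0.095 with an unadjusted p of 0.0140 without mouse 18), and Hapln1, 0.068 (interval -0.0066 to 0.14, unadjusted p = 0.0726).

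The effect of the genotype itself differed between the sexes for 1 of 9 members, Acan, at an unadjusted p under 0.05, where 2.57% of all genes tested were called. No member was called after adjustment, nor was any gene. Acan levels in the 6 TIMP2 KO males were 2.56, 2.89, 3.84, 4.21, 4.86 and 6.73 CPM. In WT males they ran from 2.28 over a median of 3.18 to 3.63 CPM, in TIMP2 KO females from 2.59 over 2.99 to 3.64 CPM, and in WT females from 2.64 over 3.09 to 4.53 CPM. Thus 4 of the 6 TIMP2 KO males were above every WT male, whereas TIMP2 KO and WT females overlapped. Acan was 0.45 higher on the log2 scale in TIMP2 KO among males alone (interval 0.12 to 0.78, unadjusted p = 0.0103) and -0.081 among females alone (interval -0.32 to 0.16, unadjusted p = 0.488). The interaction, the effect in females minus that in males, was -0.53 (95% confidence interval -0.96 to -0.098, unadjusted p = 0.0178, adjusted p = 0.9995 by edgeR's quasi-likelihood test). Without mouse 18 it was -0.33 (interval -0.71 to 0.042, unadjusted p = 0.0797), and 1 of 10 members was then called, Bcan, with 2.55% of all genes. Leaving out each of the other 29 mice kept the unadjusted p of the Acan interaction under 0.05. For Hapln4 the interaction was -0.0029 (interval -0.13 to 0.12).

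**Figure D3:**
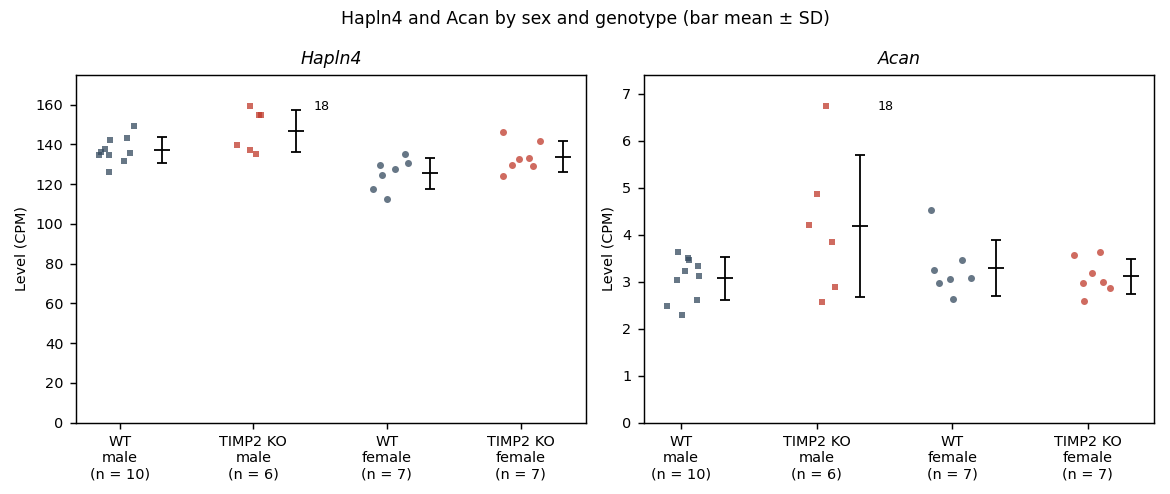
Hapln4 and Acan in CPM (linear axes starting at 0) in WT and TIMP2 KO mice of each sex, 1 point per mouse, with bars for mean ± SD. Hapln4 is lower in females of both genotypes (means 125 and 134 CPM) than in males (137 and 147 CPM), and the Acan points of TIMP2 KO males reach from 2.56 to 6.73 CPM (mouse 18).

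Levels of the members were then compared with each other over the 30 mice. Pairs of other genes were not counted, so the numbers below have no share over all genes beside them. Of 36 member pairs, 29 had a Pearson r above 0 (median 0.27), and 9 had a Benjamini-Hochberg adjusted permutation p under 0.05, all of them positive. The highest was between Vcan and Ptprz1 (r = 0.81, Spearman rho = 0.82, permutation p = 1e-05, the smallest that 100000 resamples can give, adjusted p = 0.00036). It was 0.81 without the 2 mice farthest from the Vcan median, 0.84 in TIMP2 KO, 0.78 in WT and 0.84 without mouse 18. Ncan went with both of them (r = 0.68 with Vcan and 0.66 with Ptprz1), and Tnr with Ptprz1 (0.65), Vcan (0.55) and Ncan (0.48). Acan went with Vcan (0.61, or 0.53 without mouse 18). Bcan and Ncan had r = 0.51 over all mice, 0.82 in TIMP2 KO and 0.18 in WT. Tnc and Ptprz1 had r = 0.51, which became 0.25 without the 2 farthest mice and so rests on them. By Spearman rho 11 of the 36 pairs had an adjusted permutation p under 0.05. Tnc with Ptprz1 was not among them (adjusted p = 0.0935). Acan with Ptprz1 (rho = 0.58, adjusted p = 0.00504), Acan with Ncan (0.46, 0.0386) and Hapln1 with Ptprz1 (0.44, 0.0498) passed by rho alone. Hapln4 was in none of the 9 pairs, and its r with Ncan, which lies 2222 bases from it, was -0.015. The other lectican and link protein that neighbour each other within the set, Vcan and Hapln1 (43659 bases apart), had r = 0.28 with an adjusted p of 0.274.

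**Figure D4:**
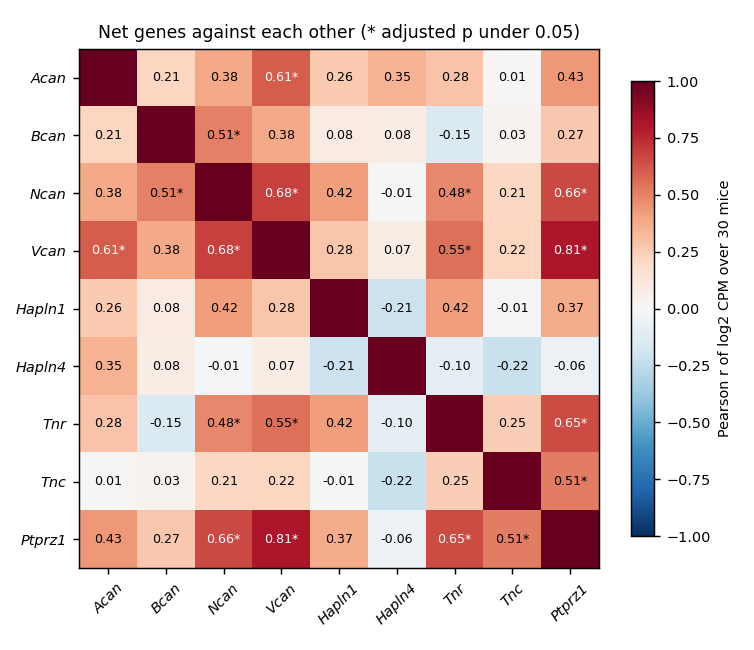
Pearson r of log2 CPM over 30 mice for each pair of the 9 tested members, on a colour scale from -1 (blue) to 1 (red), with an asterisk for an adjusted permutation p under 0.05. Vcan, Ptprz1, Ncan and Tnr form a block with r from 0.48 to 0.81, and the Hapln4 row stays between -0.22 and 0.35.

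A property of the libraries moved with this block. In each mouse the slope of log2 CPM on log2 exon length over 16436 other genes was taken, a measure of how far long transcripts were over- or under-represented in that library. The slope ran from -0.028 to 0.030 in TIMP2 KO and from -0.019 to 0.026 in WT. Tnr (r = 0.79), Ptprz1 (0.69), Vcan (0.63) and Ncan (0.54) rose with the slope, with adjusted permutation p-values of 4.5e-05, 4.5e-05, 0.00078 and 0.0052 over the 9 members tested, and Spearman rho of 0.79, 0.71, 0.62 and 0.56. Without the 2 farthest mice r was 0.75, 0.64, 0.55 and 0.49. Vcan, Ptprz1 and Tnr have the longest exon totals of the set, 14462, 14245 and 12867 bases, whereas Bcan (4064 bases) and Hapln4 (3924 bases) had r of -0.0095 and 0.043 with the slope. The order did not follow length throughout. Tnc (7772 bases) and Acan (7469 bases) are longer than Ncan (7195 bases) but had lower r, 0.395 and 0.328, with adjusted permutation p-values of 0.0524 and 0.0966. Hapln1 (5902 bases) had r = 0.37 (adjusted permutation p = 0.0655). With the slope removed from each member, 6 pairs had an adjusted p under 0.05, of which 5 were among the 9: Vcan with Ptprz1 (0.66), Bcan with Ncan (0.61), Acan with Vcan (0.55), Ncan with Vcan (0.52) and Ncan with Ptprz1 (0.47). The sixth was Bcan with Vcan (0.49). Tnr dropped out, with r of 0.24 with Ptprz1, 0.13 with Vcan and 0.10 with Ncan.

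For the pair with the highest r, and for Tnr, whose relations to them did not keep their level, the 250 bases before the RefSeq start are shown (build GRCm38.p6). RefSeq's table held an entry for 8 of the 10 members. The windows lie at chr13:89742513-89742762 on the minus strand for Vcan, chr6:22875252-22875501 on the plus strand for Ptprz1 and chr1:159523519-159523768 on the plus strand for Tnr. Capitals mark 4 short motifs searched on both strands, the E-box CAGCTG, the CCAAT box CCAAT, the GC box GGGCGG and the TATA box TATAAA, each with its reverse complement.
Vcan: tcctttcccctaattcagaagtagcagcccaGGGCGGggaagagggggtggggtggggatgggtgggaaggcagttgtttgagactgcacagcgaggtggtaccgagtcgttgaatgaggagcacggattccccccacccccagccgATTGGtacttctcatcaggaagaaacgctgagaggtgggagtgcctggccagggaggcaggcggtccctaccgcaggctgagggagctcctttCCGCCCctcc
Ptprz1: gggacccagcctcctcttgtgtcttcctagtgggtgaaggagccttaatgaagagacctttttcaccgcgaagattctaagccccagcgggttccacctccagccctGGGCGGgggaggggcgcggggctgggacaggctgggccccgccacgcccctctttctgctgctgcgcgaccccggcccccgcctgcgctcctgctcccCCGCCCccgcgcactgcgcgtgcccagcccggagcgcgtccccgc
Tnr: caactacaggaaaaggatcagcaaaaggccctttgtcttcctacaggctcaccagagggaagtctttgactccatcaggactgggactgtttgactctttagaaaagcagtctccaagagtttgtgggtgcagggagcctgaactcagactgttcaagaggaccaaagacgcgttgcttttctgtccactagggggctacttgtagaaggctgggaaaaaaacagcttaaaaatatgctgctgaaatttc
The Vcan window holds 2 GC boxes, 219 and 10 bases before the start, and a CCAAT box 103 bases before it. The Ptprz1 window holds 2 GC boxes, at 143 and 45 bases. The Tnr window holds none of the 4 motifs. The GC box is in 32.7% of the same windows of all 32851 promoters in that table, CCAAT in 33.8%, the E-box in 4271 of them and TATAAA in 12.4%. GC content was 62.4% for Vcan, 71.6% for Ptprz1 and 46.8% for Tnr, against a median of 52.4% over all promoters. These matches describe letters and were tested for no function.

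Over the whole transcriptome, the genes closest in pattern to each member were named by Pearson r over the 30 mice. These genes were picked as the highest of all genes tested, so a high r follows in part from the choice, and none was tested. For Ncan they were Slc1a2, the astrocyte glutamate transporter (0.81), Gatad2b (0.79) and Dio2, the astrocyte deiodinase that activates thyroid hormone (0.79). For Bcan they were Hdac7 (0.76), Gpr37l1, an astrocyte receptor (0.76), and Npr2 (0.73). For Hapln4 they were Ppp1cc (0.84), Neurod6, a transcription factor of pyramidal neurons (0.84), and Gpc1 (0.81). For Tnr they included Ncoa6 (0.89) and Bptf (0.89), for Vcan they were Setd1b (0.84), Sall1 (0.84) and Kif1b (0.83), and for Ptprz1 the integrin gene Itgav (0.88), the bicarbonate cotransporter gene Slc4a4 (0.86) and Setd1b (0.85). Acan was closest to Sec14l5 (0.74, or 0.49 without the 2 farthest mice), Otud7b (0.74, or 0.62) and Cadm2 (0.73, or 0.57). Hapln1 was closest to Prkcq (0.73), Slc35d1 (0.68) and Zhx1 (0.66), and without the 2 farthest mice these were 0.65, 0.56 and 0.53. Tnc was closest to Eps8 (0.75), Zim1 (0.70) and Adcy6 (0.70), which became 0.69, 0.58 and 0.61. The Ncan genes kept 0.82, 0.79 and 0.80 without the 2 farthest mice.

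Relations of the 9 members to 14 lists of cell markers gave 126 values of r, and the same count was not taken for other genes. Of the 126, 6 had an adjusted permutation p under 0.05 by Pearson r. By Spearman rho 2 of the 126 did, Hapln4 with CA2 markers (adjusted permutation p = 0.0239) and Ncan with microglia markers (0.0454), and the other 4 of the 6 had adjusted values from 0.0508 to 0.219. Hapln4 rose with the mean of 6 CA2 pyramidal markers (r = 0.68, Spearman rho = 0.64, permutation p = 3e-05, adjusted p = 0.00378) and with that of 8 hippocampal excitatory neuron markers (r = 0.65, Spearman rho = 0.54, permutation p = 0.00014, adjusted p = 0.00882). Both held within TIMP2 KO (0.66 and 0.65) and within WT (0.67 and 0.69). Without the 2 mice farthest from the median of the list, they were 0.56 and 0.41. Ncan rose with microglia markers (r = 0.60, Spearman rho = 0.59, permutation p = 0.00045, adjusted p = 0.0189) and with astrocyte markers (r = 0.58, Spearman rho = 0.54, permutation p = 0.00069, adjusted p = 0.0217). Bcan rose with astrocyte markers (r = 0.55, Spearman rho = 0.57, permutation p = 0.00138, adjusted p = 0.0348), and Acan with mature oligodendrocyte markers (r = 0.54, Spearman rho = 0.41, permutation p = 0.00172, adjusted p = 0.0361). The relations to astrocyte markers were 0.87 for Bcan and 0.86 for Ncan in TIMP2 KO and 0.13 and 0.32 in WT, and this difference was not tested. Without mouse 18, 0 of the 126 relations had an adjusted permutation p under 0.05: the 6 had r between 0.42 and 0.60, unadjusted permutation p-values between 0.00053 and 0.0219 and adjusted values between 0.0611 and 0.23. No member had such a relation to the parvalbumin and GABAergic interneuron list.

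**Figure D5:**
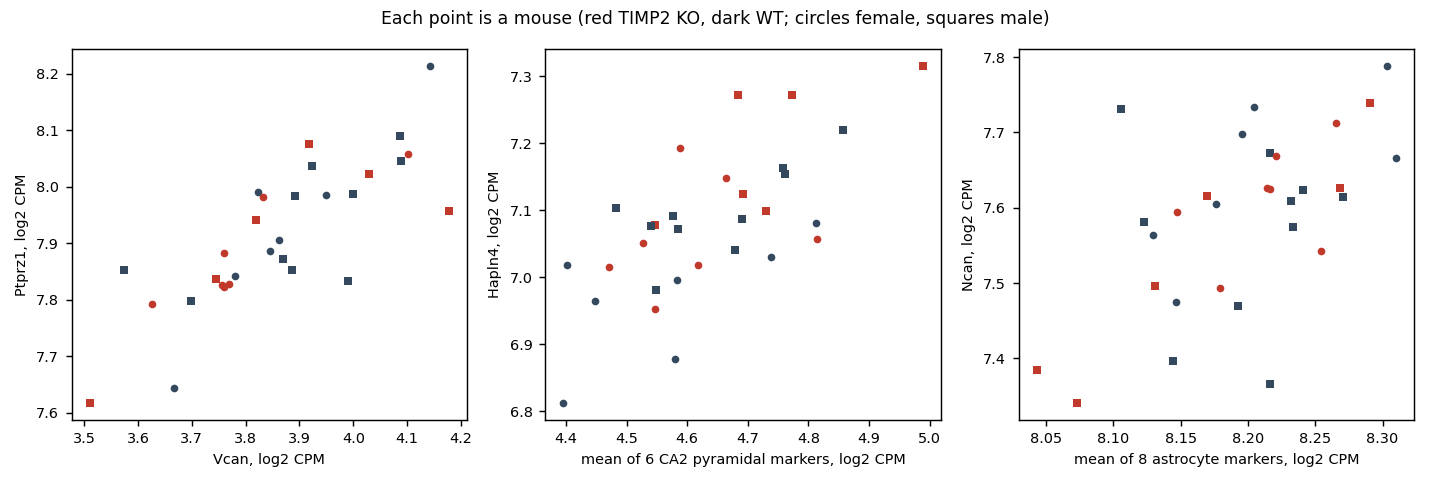
Log2 CPM of Ptprz1 against Vcan, of Hapln4 against the mean of 6 CA2 pyramidal markers, and of Ncan against the mean of 8 astrocyte markers, 1 point per mouse, in TIMP2 KO (red, n = 13) and WT (dark, n = 17), with circles for females and squares for males. The Pearson r over the 30 mice is 0.81, 0.68 and 0.58.

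The same marker lists were compared between the sexes and the genotypes, beside the Hapln4 differences. Between the sexes, 20 of 97 marker genes were higher and 6 lower in females at an unadjusted p under 0.05, where 9.77% of all genes were called in either direction. In females, 2 of 6 CA2 markers were lower and 0 higher at an unadjusted p under 0.05, Cacng5 (-0.23 on the log2 scale, p = 0.00415 in edgeR's fit) and Amigo2 (-0.14, p = 0.0483), and the list's median difference was -0.11, against 0.00070 for all genes. Of 8 excitatory neuron markers, 2 were lower in females, Neurod6 (-0.14, p = 0.00189) and the vesicular glutamate transporter gene Slc17a7 (-0.071, p = 0.00538), and 0 were higher at that threshold. The list median was -0.028, and the granule cell factor Prox1 of the same list lay in the other direction (0.094, p = 0.0800 in edgeR's fit). Of 8 astrocyte markers, 3 were higher in females, Aqp4 (0.11, p = 0.00786), Gja1 (0.075, p = 0.0242) and Slc1a3 (0.064, p = 0.0280), and so were 9 of 12 immediate early genes, 2 of 7 meningeal fibroblast and 2 of 5 striatal genes, and 1 gene each of the oligodendrocyte precursor, microglia, endothelial and neocortex lists. The other lower genes were Gad2 of the interneuron list (-0.074) and Flt1 of the endothelial list (-0.11). The CA2 markers summed to 257 to 338 CPM in females and 280 to 349 CPM in males, and the excitatory markers to 2419 to 2817 and 2575 to 2977 CPM. The part of these lists in the Hapln4 difference was not tested. Between the genotypes, 0 of 6 CA2 markers and 1 of 8 excitatory markers were called, the granule cell factor Prox1 (-0.16, unadjusted p = 0.0050).

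Over all 14 lists, 19 of 97 tested marker genes were called between the genotypes, against 5.03% of all genes. Of these, 10 of 12 immediate early genes were higher in TIMP2 KO (median difference 0.39, with Nr4a1 at 0.42, Arc at 0.50, Junb at 0.32 and Egr4 at 0.30). Their summed level ran from 310 to 864 CPM in TIMP2 KO and from 270 to 766 in WT. Of 6 tested choroid plexus genes, 5 were higher (Ttr, 3.67, adjusted p = 0.0326, Clic6, 1.52, Sostdc1, 0.44, and Prlr, 0.52 among them), with sums of 33.3 to 726 CPM in TIMP2 KO and 28.4 to 69.4 in WT. The median sums of this list lay much closer, at 41.9 CPM in TIMP2 KO and 37.7 CPM in WT. The higher choroid plexus levels were thus not spread evenly over the TIMP2 KO mice. Of 8 astrocyte markers, only Gfap was called, and it was higher (0.093), whereas the list median was -0.026. Aqp4 lay above 0 as well (0.058), and the rest of that list lay below 0, from Slc1a2 (-0.073) to Aldh1l1 (-0.020). Slco1a4 of endothelial cells (-0.10) and Rasgrf2 of the neocortex list (-0.081) were called lower. The lists for interneurons, oligodendrocyte precursors, mature oligodendrocytes, microglia, meningeal fibroblasts, thalamus and habenula, and striatum had 0 genes called by edgeR's quasi-likelihood test at an unadjusted p under 0.05.

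The wider machinery around the nets was described with 4 further lists. Of their 46 tested genes, 5 were called between the genotypes at an unadjusted p under 0.05, and 0 after adjustment, where 5.03% of all genes had the former. Of 13 further net and hyaluronan matrix genes, such as the proteoglycan gene Cspg5 at 273 ± 13.6 CPM in TIMP2 KO and 279 ± 16.1 CPM in WT, 0 were called, with a median difference of 0.0019 against 0.00011 for all genes. Of 15 receptors and cell surface partners, the integrin gene Itga8 was lower (14.7 ± 1.29 CPM in TIMP2 KO and 16.4 ± 1.54 CPM in WT, -0.16 on the log2 scale, unadjusted p = 0.00188) and Itga9, whose integrin binds tenascin-C, was higher (5.58 ± 0.468 and 5.03 ± 0.669 CPM, 0.15, unadjusted p = 0.0201). Their median difference was -0.012.

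Among 11 tested proteases able to cleave lecticans, the aggrecanase-family gene Adamts8 (4.65 ± 0.488 CPM in TIMP2 KO and 4.11 ± 0.596 CPM in WT, 0.18, unadjusted p = 0.0129) and the membrane-type metalloproteinase gene Mmp15 (19.1 ± 1.58 and 17.8 ± 1.51 CPM, 0.11, unadjusted p = 0.0164) were higher, 0 were lower, and the median difference was 0.042. Of 7 genes of hyaluronan breakdown, Cemip, which encodes a hyaluronan-binding protein needed for its depolymerization, was lower (26.5 ± 2.35 CPM in TIMP2 KO and 29.2 ± 3.24 CPM in WT, -0.15, unadjusted p = 0.00719), and the median was -0.047. Cemip was higher in females (0.15, unadjusted p = 0.00219). Between the sexes, 3 of the 7 breakdown genes were called, all higher in females, against 9.77% of all genes. Over the 4 lists, 6 of 46 genes were called between the sexes. The other lists had 1 of 15 receptors and partners, 0 of 11 proteases and, of 13 further matrix genes, 1 higher and 1 lower in females.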

How the data were processed

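The authors deposited raw read counts per gene, without normalization, for hippocampi of 30 mice (13 TIMP2 KO, 17 WT). Per the submitters' processing notes, Trimmomatic 0.36, STAR 2.5.2b and featureCounts of Subread 1.5.2 were used with GRCm38. The annotation release and strand setting are not given in the sources used here. Genotype and sex came from the sample labels, every column name matched 1 label, and 0 pairs of columns were identical. The table held 49315 identifiers, and 259 lacked an entry in GENCODE M21, the source of symbols, positions and exon lengths.

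Counts were TMM-scaled, filtered with filterByExpr and tested over 16486 genes with edgeR 4.0.16 (quasi-likelihood, R 4.3.3), without covariates for genotype, with genotype for sex, and with an interaction term. P-values were adjusted by Benjamini-Hochberg over all these genes. Intervals (95%) come from the fit. The common biological coefficient of variation was 7.5%. Relations over mice used log2 CPM (prior count 2) and 100000 permutations in Python 3.11.15, adjusted within each family of 36, 126 or 9 relations. The methods were tested on simulated data.

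Alternatives were DESeq2 1.42.0, limma 3.58.1 voom with sample weights, RLE scaling, a filter of 10 counts per mouse or none, a covariate for sex, males or females alone, and leaving out mouse 18 or each mouse in turn. Named genes are all members, Timp2, up to 4 genes per list with the smallest unadjusted p under 0.05 (otherwise its most abundant gene), and the 3 genes most alike each member, of which 1 is not reported here. The members and lists were chosen with earlier results of these data known.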

Additional observations from a re-analysis of the deposited data

Results flagged for a closer look

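The effect of the genotype on Acan differed between the sexes at an unadjusted p under 0.05 only, a threshold that 2.57% of all genes tested passed for this interaction. After adjustment 0 genes passed. The TIMP2 KO minus WT difference in females minus that in males was -0.53 on the log2 scale (SE 0.21, unadjusted p = 0.0178 and adjusted p = 0.9995 for the interaction by edgeR's quasi-likelihood test). The mean Acan level was 4.18 ± 1.51 CPM in TIMP2 KO males, 3.07 ± 0.464 in WT males, 3.11 ± 0.375 in TIMP2 KO females and 3.29 ± 0.601 in WT females (SD). Without mouse 18 the interaction was -0.33 with an unadjusted p of 0.0797. In 36 groups of 6 to 10 mice examined with Dixon's test, 0 members had a mouse past its 95% critical value, where chance gives about 1.8.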

How the results depend on the processing

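Between the genotypes, 1 of 9 members was called at an unadjusted p under 0.05. The number was 0 without mouse 18 (with 5.6% of all genes called), 2 in males alone (Acan and Hapln4, 3.25%), 0 with voom (5.82%), and 0 to 2 on leaving out each mouse (4.28% to 5.82%). Signs changed for Acan (-0.081), Bcan (0.012) and Hapln1 (0.0040) in females alone and for Hapln1 with voom (0.00357). Leaving out each mouse, Hapln1 lay between -0.020 and 0.014. Males alone gave 2 matrix list genes (5 with all mice), and females alone 12 marker genes (19 with all mice).

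Between the sexes, the number of members called was 2 with at least 10 counts (Ncan and Hapln4, with 10.2% of all genes called), 2 without mouse 18 (the same 2 genes, 10.3%) and 2 in TIMP2 KO alone (Acan and Hapln4, 6.15%), and 1 in WT alone (Hapln4, 5.59%), and after adjustment it was 0 without mouse 18, in WT alone and in TIMP2 KO alone. Leaving out each mouse gave 1 to 3, with 8.64% to 10.3% of all genes called, and, after adjustment, 0 to 1. Signs changed in WT alone for Acan (0.10) and Bcan (-0.026) and in TIMP2 KO alone for Tnr (-0.0092) and Tnc (0.034). Leaving out each mouse, the ranges were -0.0069 to 0.025 for Bcan, -0.00087 to 0.037 for Tnr, -0.11 to 0.025 for Tnc and -0.045 to 0.0066 for Ptprz1.

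For the interaction, signs changed without mouse 18 for Ncan (0.030), Vcan (0.021) and Hapln4 (0.022). Leaving out each mouse gave 1 to 2 members called, with 2.13% to 3.6% of all genes called, and 2 only without mouse 25 (Acan and Has2, with 2.33% of all genes). The ranges in these fits were -0.049 to 0.030 for Ncan, -0.12 to 0.021 for Vcan, -0.0021 to 0.070 for Hapln1, -0.028 to 0.022 for Hapln4 and -0.077 to 0.028 for Ptprz1. Without mouse 18, Bcan had an interaction of 0.12 with an unadjusted p of 0.0280. Relations to marker lists past the threshold numbered 6, and 0 without mouse 18. The cause was not tested for any of these. The splits by genotype, the omissions of single mice other than mouse 18 in the sex and interaction fits, and the length slope were added after seeing the data. No paired analysis by litter was possible: the study describes littermate controls, but the labels used here name no litters. With 49 to 223 reads of Acan and 4 to 19 of Has2 per mouse, counting error limits both genes.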
